A study of Mus musculus with 2 samples.

Results

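The heat shock and J-domain chaperone genes were compared between control RAW264.7 cells and RAW264.7 cells with Lamtor1 knocked down. RAW264.7 is a macrophage-like mouse cell line. Members were the genes whose symbol on the array begins with Dnaja, Dnajb, Dnajc or Hsp90, or with Hspa, Hspb, Hspd, Hspe or Hsph before a digit. This rule took 71 of 31823 gene symbols, on 101 probes of 60 bases. Of these, 54 were well above background on both arrays, 2 on the control array only and 15 on neither. The 56 genes above background on at least 1 array were counted as measured.

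HSP70 proteins bind and release unfolded polypeptides in cycles driven by ATP. J-domain proteins bring them substrates and trigger ATP hydrolysis, and nucleotide exchange factors reset the cycle. HSP90 acts later on a narrower set of clients, small heat shock proteins hold unfolded proteins without ATP, and the HSP60 and HSP10 chaperonin folds proteins inside mitochondria. Each compartment has its own set, and heat or other protein damage induces a part of the cytosolic one through heat shock factor HSF1. Unfolded protein in the endoplasmic reticulum (ER) induces the ER set through a separate response. In macrophages these proteins serve the folding of secreted and membrane proteins and the delivery of damaged proteins to proteasomes and lysosomes.

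The knockdown cells carried short hairpin RNA from a lentivirus, a mixture of vectors against Lamtor1, which encodes the lysosomal anchor of the Ragulator complex. The cells were plated by limiting dilution after infection. The labels repeat this protocol for the control sample. The sources used here do not give what the control cells received, or whether a sample grew from 1 clone. The series asks how active TFEB, a transcription factor of lysosomal genes, is in cells lacking Ragulator. Each group is 1 array of total RNA, so no difference below has a replicate check, and the number of arrays limits the precision.

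Each level below is the log2 of a probe's signal over its array's 75th percentile, and each difference is the knockdown level less the control level. Lamtor1 itself was 23.1-fold lower, from 4.10 in the control to -0.43 in the knockdown. Spots well above background made up 53.3% of the control array and 52.9% of the knockdown array. All 8 macrophage markers examined were above background on both arrays, at 1.05 to 7.47 in the control. They did not move together: Emr1, the gene of the surface marker F4/80, differed by -1.56 and the lysosomal marker Cd68 by 1.22, and their part in the differences below was not tested. None of 7 B cell and epithelial markers was above background. Of 7 T cell and fibroblast markers, Cd3e, at about -1.40 and -1.35, and Col1a2, at -5.62 and -5.54, were. The scanner software's own error for the difference of a member above background on both arrays had a median of 0.20. It covers the spot and the scan, not cultures or labelling.

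Chaperone genes differed in both directions, mostly by less than 2-fold. Of the 56 measured members, Dnajb5 and Dnajc22 were higher by 2-fold or more in the knockdown, and Hspa1a, Dnajb8, Hspb6 and Hspb9 were lower by as much. Those are 2 and 4 genes, beside 8.7% of all 17514 measured gene symbols on the high side and 8.64% on the low side. With bounds for genes above background on 1 array, 2 members were higher and 3 lower, beside 7.31% and 6.83%. Differences above 0 were found for 31 of 56 (55.4%), against 43.5% of all symbols. Under the other scalings 25 to 36 members were above 0, and the median of all symbols moved too, between -0.12 and 0.02. The members had a median difference of 0.03, against -0.07 over all symbols. J-domain genes made up 38 of the 56, with a median of 0.12 and 25 above 0. The other classes made up 18, with a median of -0.12 and 6 above 0. A difference under 0.5 in size was found for 40 of the 56 members (71.4%), against 63.3% of all symbols. Of the 54 members above background on both arrays, 24 stayed within the scanner's error, 17 were higher by more than it and 13 lower by more than it. Over the 15702 symbols above background on both arrays the shares were 37.4% within the error, 26.7% higher and 35.9% lower.

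**Figure D1:**
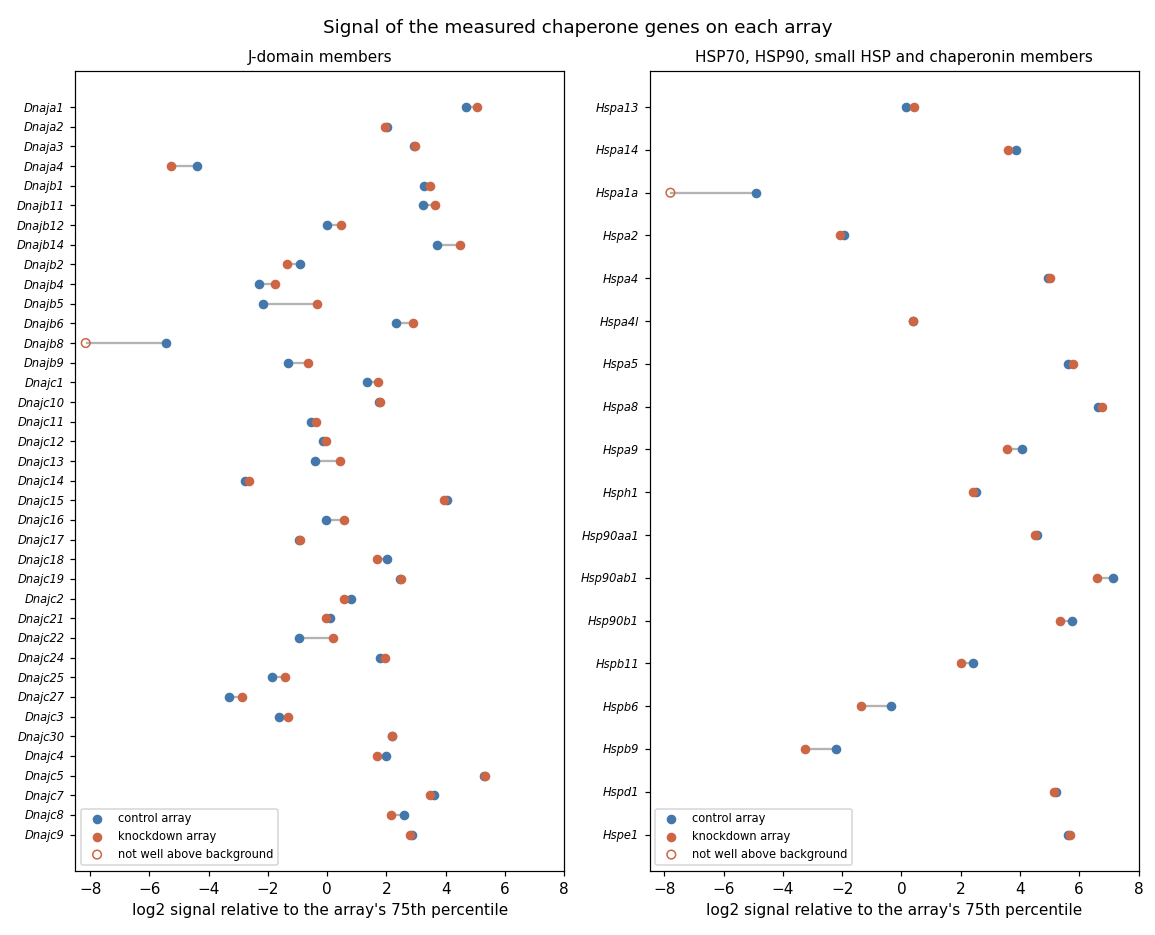
Log2 signal of each of the 56 measured chaperone genes (x axis, relative to the 75th percentile of the array) on the control (blue) and knockdown (orange) array, with 1 array per group and the brightest probe of each gene; open points were not well above background. Dnajb5 and Dnajc22 lie over 2-fold to the right on the knockdown array, while Hspa8, Hspa4, Hspd1 and Hspe1 nearly coincide.

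The main HSP70 genes were well short of 2-fold. Hspa8, which encodes the constitutive HSC70 of the cytosol, was at 6.63 in the control and 6.77 in the knockdown, a difference of 0.13. Hspa5, encoding BiP, the HSP70 of the ER lumen, went from 5.63 to 5.78. Hspa9, encoding the mitochondrial HSP70 mortalin, was at 4.06 and 3.55, a 1.42-fold lower signal. Of these genes Hspa9 alone differed by more than the scanner's error.

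The exchange factor genes of the HSP110 type were close to equal at their brightest probes. Hspa4 differed by 0.06 there, but by -0.27 and -0.34 at its 2 other probes, so that its median over probes was -0.27. Hspa4l differed by 0.01 and the stress-induced Hsph1 by -0.11. Hspa14, a ribosome-associated relative, had a difference of -0.28, Hspa2 of -0.12 and Hspa13, a relative in the ER, of 0.26. The 10 measured genes of the Hspa and Hsph class had a median of -0.05, with 5 on each side of 0.

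Hspa1a, a stress-induced cytosolic HSP70 gene, was the member with the lowest difference. Its control level was -4.90. On the knockdown array it stood at -7.80 and was not well above background. Set against the lowest signal that counts as well above background there, it was 2.08-fold lower. The plain difference changed with the processing. With normexp background correction and its added offset, Hspa1a was 1.50-fold lower. The scanner's error for the plain difference of the processed signal was 1.45. All 3 other members of its class that were not measured, Hspa12a, Hspa12b and Hspa1l, were below background on both arrays. The Hspa1a probe lies at chr17:35107117-35107176 of the mm9 build, on the minus strand. The near-identical Hspa1b was not analysed here, and whether the probe tells the copies apart was not tested.

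The Dnaja genes, the general partners of HSP70, lay on both sides of 0, with 2 of 4 above it (1 to 3 under the other scalings). Dnaja1 was at 4.68 and 5.04 by its brightest probe, Dnaja2 at 2.01 and 1.93, and the mitochondrial Dnaja3 at 2.94 and 2.95. Dnaja4 was faint on both arrays, at -4.40 and -5.26, and 1.82-fold lower in the knockdown.

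The Dnajb class had the highest median of all classes, 0.51, with 8 of 10 measured genes above 0. The count of 8 was the same under each scaling and with normexp. All 8 exceeded the scanner's error, or 7 under 2 of the other scalings, where Dnajb1 did not (0.16 in both), beside 26.7% of all symbols above background on both arrays. Dnajb5, encoding a J-domain protein of cytosol and nucleus, had the largest positive difference of any member. It was at -2.18 in the control and -0.35 in the knockdown, a 3.53-fold higher signal, from a single probe at chr4:42971494-42971553 of mm9, on the plus strand. Dnajb6, a suppressor of protein aggregation, was 1.50-fold higher, from 2.32 to 2.91, and its 4 probes gave differences of 0.43 to 0.59. Dnajb4 was 1.43-fold higher.

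Dnajb1, the stress-induced partner of cytosolic HSP70, was at 3.25 and 3.46, a difference of 0.21. It lay just above the scanner's error of 0.20, unlike Dnajb5 and Dnajb6 in the same compartment. Dnajb2 was lower, by -0.44 at its brightest probe and by -0.79 at its other probe. Dnajb8 was at -5.44 in the control and -8.15, not well above background, in the knockdown. Its bound, which is a minimum, was 1.43-fold lower and so does not establish 2-fold. The scanner's error for its plain difference was 1.465. The remaining Dnajb genes, Dnajb3, Dnajb7 and Dnajb13, were not above background.

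The 4 further Dnajb genes above 0 encode proteins of the ER. Dnajb14 and Dnajb12 are ER membrane proteins that act in the degradation of misfolded proteins, and Dnajb9 and Dnajb11 are partners of BiP in the lumen. Dnajb14 was at 3.70 in the control and 4.47 in the knockdown, 1.70-fold higher. Dnajb9 was at -1.32 and -0.65, 1.59-fold higher, and its second probe gave 0.95. Dnajb12 was 1.41-fold and Dnajb11 1.35-fold higher. None of the 4 reached 2-fold.

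The ER members of the set, 11 of them J-domain genes, were mostly higher by small amounts. Of 14 measured ER members 12 were above 0, 11 when arrays were scaled on spots above background on both, and none reached 2-fold in either direction. Their median was 0.34, against -0.10 for 30 members of cytosol and nucleus and -0.01 for 8 mitochondrial members. Of the 14, 9 exceeded the scanner's error on the high side and 2 on the low side, beside 26.7% and 35.9% of all symbols above background on both arrays. With 1 array per group this difference between compartments has no test.

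**Figure D2:**
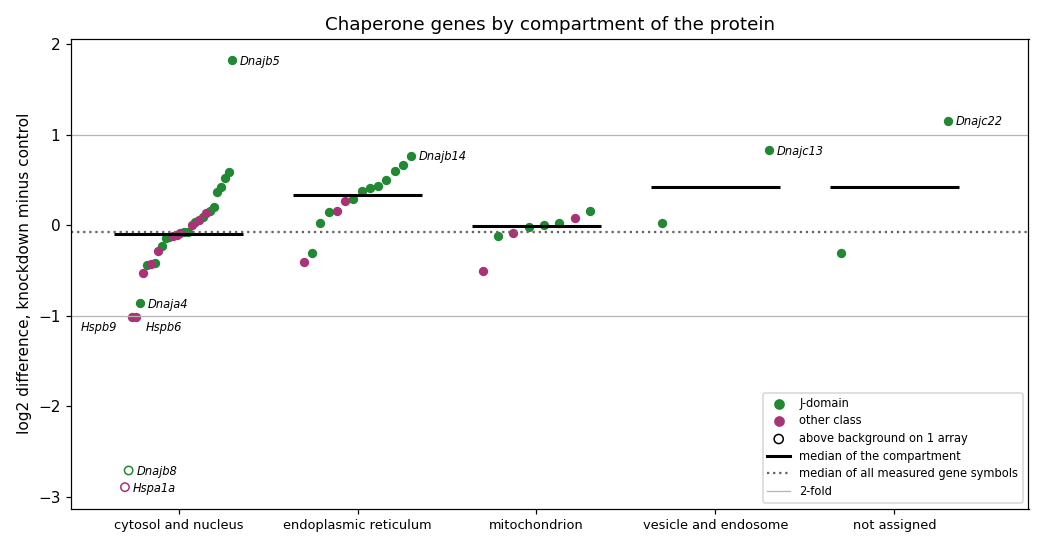
Log2 difference, knockdown minus control, of the 56 measured members by the compartment of their protein, with J-domain genes in green, other classes in purple and open points for genes above background on the control array only. Black bars are medians (0.34 for the endoplasmic reticulum, -0.10 for cytosol and nucleus, -0.01 for mitochondria), the dotted line is the median of all measured symbols, -0.07, and grey lines mark 2-fold.

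J-domain genes make up 11 of the 14 ER members and 10 of the 12 above 0. The 3 other ER members had a median of 0.15, with 2 above 0. The 11 ER J-domain genes had a median of 0.42, with 10 above 0, whereas the 18 measured J-domain genes of cytosol and nucleus had a median of -0.02, with 9 above 0. Among the ER members of class Dnajc, Dnajc16 was 1.51-fold higher, from -0.04 to 0.56, Dnajc25 1.33-fold and Dnajc1 1.30-fold. Dnajc3, an inducible co-chaperone of BiP, was 1.22-fold higher. Dnajc10, a disulfide reductase of the lumen, differed by 0.03 and Dnajc14 by 0.14. Dnajc18 was the single ER J-domain gene below 0, at -0.31.

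The lumenal HSP70 and HSP90 lay on opposite sides of 0. BiP (Hspa5) differed by 0.15, within the scanner's error and above 0 under each scaling, and Hsp90b1, encoding GRP94, was at 5.77 and 5.37, 1.32-fold lower. Sequences upstream of the transcription start were searched for the ER stress element, CCAAT and CCACG parted by 9 bases of any kind, on both strands, in the 250 bases before each RefSeq start (GRCm38.p6). Of the 71 members 57 had an entry. The element occurred in 3 of these 57 genes and in 0.13% of all 27025 genes with an entry. The stretches are shown because their genes encode lumenal chaperones with differing directions. Capitals mark the element, as read on the strand of the gene.
Hspa5, chr2:34772013-34772055, plus strand: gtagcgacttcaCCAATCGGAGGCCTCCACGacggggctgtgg
Hsp90b1, chr10:86705626-86705668, minus strand: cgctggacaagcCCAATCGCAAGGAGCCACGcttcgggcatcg
Hsp90b1, chr10:86705521-86705563, minus strand: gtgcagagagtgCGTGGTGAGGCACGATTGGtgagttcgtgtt
Dnajc3, chr14:118937815-118937857, plus strand: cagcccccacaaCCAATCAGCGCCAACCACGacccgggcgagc
The 3 genes that hold the element had differences of 0.15, -0.40 and 0.29, so they lay on both sides of 0. A match is a description of the sequence and not evidence of a bound factor.

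A shorter motif was searched in the same windows. The hexamer CACGTG, an E-box, was found upstream of 5 members with an entry, 8.77% of the 57, against 6.86% of all genes with an entry. Among these, 3 encode ER J-domain proteins that were higher in the knockdown. E-boxes of this form are the core of the motif that TFEB recognises. The share among members was close to that of all genes, and a part of TFEB in these differences was not tested. Only the stretches of these 3 genes are shown.
Dnajb9, chr12:44210158-44210187, minus strand: acaacagttttcCACGTGcgcgtagggcgc
Dnajc1, chr2:18392938-18392967, minus strand: ccagcgctgacaCACGTGcagctgctctac
Dnajc16, chr4:141790705-141790734, minus strand: gtctttaagtgaCACGTGactgccccgggc
Capitals mark the hexamer, which reads the same on both strands. The Dnajc1 stretch precedes 1 listed start and lies within the annotated span of the gene. The differences of these 3 genes were 0.67, 0.38 and 0.60. The other genes with the hexamer, Hspd1 and Hsph1, differed by -0.08 and -0.11. The longer palindrome known as the CLEAR element, the hexamer with GT before it and AC after it, was found upstream of 0 members and of 0.27% of all genes.

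The Dnajc class as a whole, with its 7 ER genes, had a median of 0.035 over 24 measured genes, with 15 above 0 (11 to 17 under the other scalings). The 17 genes outside the ER had a median of 0.03, with 9 above 0 (6 to 11 under the other scalings), and 11 of them stayed within the scanner's error. Dnajc22, whose compartment was not assigned, was 2.23-fold higher, from -0.97 to 0.19, at its single probe at chr15:98934890-98934949 of mm9 on the plus strand. Dnajc13, encoding the endosomal protein RME-8, was 1.77-fold higher, from -0.40 to 0.42. Dnajc27, a small GTPase with a J domain, was 1.34-fold higher.

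The lower Dnajc genes differed by less. Dnajc8, a splicing factor, was at 2.58 and 2.16, and its 3 probes gave -0.34 to -0.52. Dnajc4 differed by -0.31 and Dnajc2, which acts on nascent chains at the ribosome, by -0.23. Dnajc7, a co-chaperone of both HSP70 and HSP90, differed by -0.13, Dnajc9, a histone co-chaperone, by -0.07 and Dnajc21, a factor of ribosome biogenesis, by -0.14. Dnajc12, Dnajc17 and Dnajc24 differed by 0.09, 0.04 and 0.16. Dnajc28, Dnajc5b, Dnajc5g and Dnajc6 were not above background.

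Of 8 mitochondrial members, 7 stayed within the scanner's error at their brightest probes and Hspa9, at -0.51, did not. Dnajc15 and Dnajc19, of the import motor, differed by -0.12 and 0.03, though a second Dnajc19 probe gave 1.15, and Dnajc30 differed by -0.01. Dnajc11, an organiser of cristae, was spotted 10 times. Its difference was 0.16 ± 0.07 (SD, n = 10 spots on 1 array per group), from 0.09 to 0.30. This spread between spots is smaller than the scanner's error of 0.20.

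The chaperonin genes were nearly equal on the arrays. Hspd1, encoding HSP60, was at 5.23 in the control and 5.14 in the knockdown, and Hspe1, encoding its lid HSP10, at 5.61 and 5.68. The 3 Hspe1 probes gave 0.04 to 0.08. These genes start close together on opposite strands of chromosome 1, and the heat shock elements upstream of both are the same bases. The search took 3 alternating blocks, GAA, TTC and GAA or TTC, GAA and TTC, with 2 bases of any kind between blocks, on both strands. At least 1 match was found for 3 of 57 members with an entry and for 0.51% of all genes with one. The stretches are shown as the classical heat shock motif of the set, with the matched run in capitals.
Hspe1, chr1:55088053-55088082, plus strand: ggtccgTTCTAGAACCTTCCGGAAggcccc
Hspd1, chr1:55088053-55088082, minus strand: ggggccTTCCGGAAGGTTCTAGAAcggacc
Dnajb6, chr5:29735846-29735870, plus strand: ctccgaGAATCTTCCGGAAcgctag
In the first pair 2 matches overlap in 1 run, at -89 to -72 from the Hspe1 start. The run precedes 1 of 2 listed Hspd1 starts and lies within the span transcribed from the other. The Dnajb6 stretch lies within the annotated span of Gm5129. With differences of 0.08, -0.08 and 0.59, of these genes Dnajb6 alone exceeded the scanner's error. The absence of a match elsewhere says only that these letters are not in the window.

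HSP90 genes were lower or within the scanner's error. Hsp90ab1, the constitutive cytosolic form, was at 7.13 and 6.60, 1.44-fold lower, and Hsp90aa1, the stress-induced form, at 4.58 and 4.50. With Hsp90b1 all 3 were below 0 and the median was -0.40. The Hsp90aa1 difference lay within the scanner's error and was 0.01 when arrays were scaled by their medians.

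Of the small heat shock proteins, the 3 measured genes were all lower. Hspb6, encoding HSP20, was at -0.35 in the control and -1.36 in the knockdown, 2.02-fold lower. Hspb9 was at -2.22 and -3.24, 2.03-fold lower. Both lie just past 2-fold. Hspb11, a subunit of the ciliary transport machinery rather than a folding chaperone, was 1.35-fold lower. The other 5 genes of the class, Hspb1, Hspb2, Hspb3, Hspb7 and Hspb8, were not above background. Hspb7 was spotted 10 times, with 1 spot above background in the control and 0 in the knockdown. Its difference of -1.80 ± 0.47 (SD, n = 10 spots) therefore has no measured level on either side.

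The calls at 2-fold on the low side rested on faint or borderline signals. With normexp, which models the raw spot and its local background and then adds an offset of 50, 0 members were at least 2-fold lower. Hspb6 was then 1.86-fold lower, Hspb9 1.65-fold, Dnajb8 1.52-fold and Hspa1a 1.50-fold. Such an offset by itself makes the differences of faint signals smaller. Its share in these changes, apart from the background model, was not tested. The higher genes held, with Dnajb5 at 2.98-fold and Dnajc22 at 2.12-fold. Scaling by array medians left the plain differences of Hspa1a and Dnajb8 as the 2 lower calls, at -2.80 and -2.61.

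**Figure D3:**
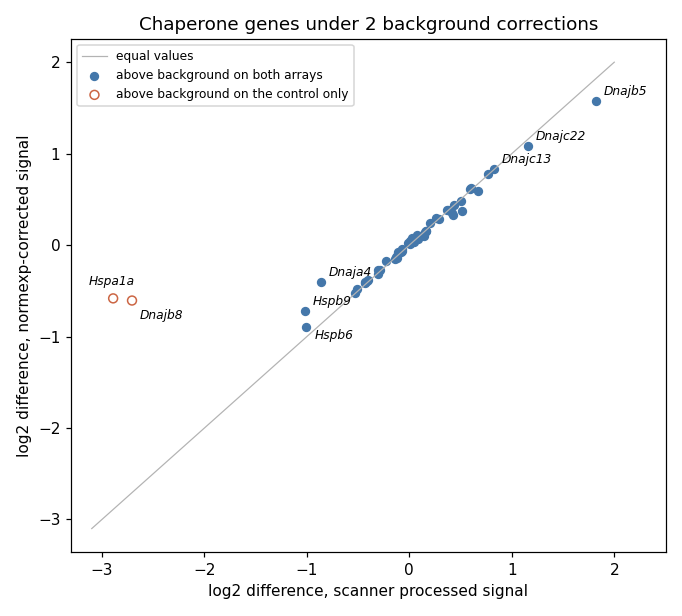
Log2 difference of each measured member from the scanner's processed signal (x axis) and after normexp background correction with offset 50 (y axis). There was 1 array per group, and open points were above background on the control array only. Dnajb5 and Dnajc22 stay above 1 on both axes, whereas Hspa1a and Dnajb8 move from -2.89 and -2.71 to -0.58 and -0.61.

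Genes with several probes show how far a value depends on the probe. In 19 members more than 1 probe was above background on each array, and in 14 of these all such probes had the same sign. The range between probes exceeded 0.5 for 5 of the 19, against 18.5% of 3341 symbols on the array. Dnaja1 differed most: its brightest probe gave 0.37 and a probe 1984 bases further along the genome, much fainter at -4.20 in the control, gave -1.39. Hspa4, Hspa8 and Dnajc14 had their brightest probes above 0 and their other probes below it. The Hspa8 probes gave 0.13, -0.02 and -0.11, and the Dnajc14 probes 0.14 and -0.05. For Dnajc19 the brightest probe gave 0.03 and another, 19380 bases away, 1.15. The cysteine string protein gene Dnajc5 was at 5.30 and 5.33 by its brightest probe, while its 2 other probes above background gave 0.58 and 0.59. Hspa13 gave 0.26 and 0.90, and Dnajc25 0.42 and -0.19. No member probe shares a run of 25 bases with a probe of another symbol.

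**Figure D4:**
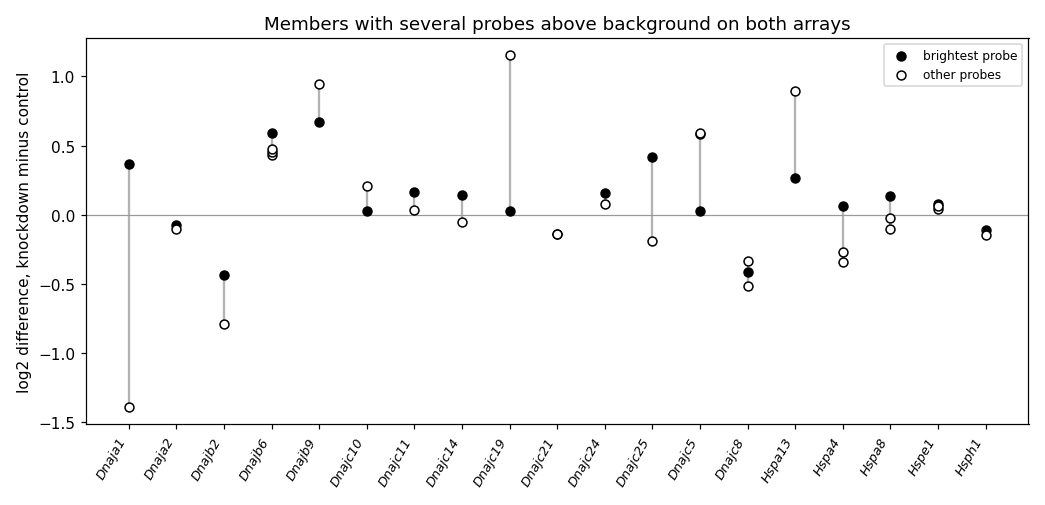
Log2 difference, knockdown minus control, at each probe above background on both arrays (y axis) for the 19 members with several such probes (x axis); filled points are the brightest probe, whose value stands for the gene. The probes of Dnajb6, Dnajc8, Hspe1 and Hsph1 lie together, while those of Dnaja1 run from -1.39 to 0.37 and those of Dnajc19 from 0.03 to 1.15.

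The regulators and partners of these chaperones, taken as lists, were mostly within 2-fold. Their counts above 0 and medians stand beside 43.5% of all measured symbols above 0 and a median of -0.07. Hsf1, the main heat shock factor, was 1.24-fold lower, from 1.06 to 0.75, and Hsf2 1.66-fold lower. Hsf4 was faint, at -5.74 and -3.88, and 3.63-fold higher, with a normexp difference of 0.73. Of 15 exchange factors and co-chaperones of HSP70, 12 were above 0 (10 to 13 under the other scalings) and none reached 2-fold. Tomm70a, a mitochondrial import receptor, differed by -0.54, the BiP exchange factor Sil1 by -0.37 and the selective autophagy co-chaperone Bag3 by 0.30. The list's median was 0.08.

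The list of HSP90 co-chaperones, which also holds the gene of the mitochondrial HSP90, had a median of -0.12. In it 6 of 19 were above 0 (6 to 8 under the other scalings), beside 43.5% of all symbols, and none was at 2-fold. Fkbp8 was 1.78-fold higher, the cyclophilin gene Ppid 1.73-fold lower and Aarsd1 1.63-fold lower. Whether the Aarsd1 probe reads a co-chaperone form of that gene was not tested. Of 14 genes of the cytosolic chaperonin CCT and its partner prefoldin, 1 was above 0, under each scaling too, and the median was -0.27. Cct5, Cct2 and Pfdn2 differed by -0.37, -0.37 and -0.35. Each of these differences is well short of 2-fold.

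ER folding and stress genes outside the member set lay on both sides of 0. Of 21 measured, 8 were above 0 (8 to 10 under the other scalings), and the median was -0.13. This stands beside 43.5% of all symbols above 0, and 12 of the 14 ER members. Ern1, encoding the stress sensor IRE1, was 2.04-fold higher and the only one at 2-fold (normexp difference 0.84). The oxidase gene Ero1l was 1.77-fold lower and the ubiquitin ligase gene Syvn1 1.33-fold higher. Among J-domain genes that carry other names, 3 were measured and all were above 0. Sec63, of the ER translocon, was 1.54-fold higher at the brightest probe, whereas the median over its probes was -0.06. Gak, which uncoats clathrin vesicles, was 1.24-fold and Hscb 1.18-fold higher. The list of mitochondrial proteases and import genes, 12 measured, also holds the transcription factor gene Atf5. In it 4 were above 0 and none reached 2-fold, with Atf5 at -0.52, Clpx at 0.37 and Yme1l1 at -0.30. Cryab, the 1 crystallin-type gene measured, differed by -0.16.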

How the data were processed

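Total RNA of 1 control and 1 Lamtor1 knockdown sample was labelled with Cy3 and hybridised to 1-colour Agilent arrays. The deposited files give an intensity per spot from Agilent Feature Extraction 10.7.3.1, per the submitters' processing notes. Per the file headers, the authors' processed intensity was detrended within the array, not corrected for local background, with surrogates for signals not above background. The deposited value table (column medians 28 and 27.8) holds the same intensity on a linear, uncentred scale, rounded. The main values are log2 of the processed intensity minus each array's 75th percentile (1172 and 1255). Spots flagged as outliers (162 and 177) were left out, repeated spots were averaged, and a gene took its brightest probe. The main counts, medians and figures use the plain difference of every measured gene. For a gene above background on 1 array a bound is given too. It is a minimum, set by the dimmest signal that the other array still scored well above background. Both arrays share slide and scan. Calls are 2-fold. No test was possible with 1 array per group. Scripts used Python 3.11.15 and limma 3.58.1 (normexp, offset 50), and were tested on simulated data. Any member could be named, as could Lamtor1, Hsf genes and up to 3 genes with the largest differences of each list. The members and lists were chosen with earlier results of these data known. Member probes matched the RefSeq gene table, 97 by accession and 4 by symbol. Probe positions are those of mm9, per the file headers, and promoter sequences are from RefSeq on GRCm38.p6. Alternatives changed the scaling, background correction, dim filter, probe rule, gene names, value source and outlier spots.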

Additional observations from a re-analysis of the deposited data

How the results depend on the processing

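All values rest on 1 array per group, so no replicate could be left out. No paired analysis was possible because each group holds 1 array. The count of members at least 2-fold higher was within 1.5 times under all 11 alternatives. The count at least 2-fold lower, 4 beside 8.64% of all symbols, was 2 after median scaling (7.71% of all symbols), after quantile normalization (8.13%) or with genes above background on both arrays (5.38%), 0 with normexp (4.07%), and 8 of 71 without a filter on dim probes (7.71%). Over all symbols, counts of 1523 higher and 1514 lower became 902 and 712 with normexp, and 911 and 844 with genes above background on both arrays. Medians were counted as moved where they shifted by more than 0.044, the median SD of a difference over repeated spots. Smaller shifts still turned some signs. Scaling on spots above background on both arrays put all members at -0.015 and Dnajc at -0.007. The median over probes put all members at -0.006. With normexp, mitochondria had 0.031 and Hspd and Hspe 0.020. Median scaling moved 12 medians: all members to 0.12, Dnaja to 0.056, Dnajb to 0.60, Dnajc to 0.13, Hspa and Hsph to 0.04, Hsp90 to -0.31, Hspb to -0.92, Hspd and Hspe to 0.089, cytosol and nucleus to -0.004, ER to 0.43, mitochondria to 0.087, and vesicles and endosomes to 0.52. Quantile normalization moved Hspb to -0.95 and Hspd and Hspe to 0.048, and normexp moved Dnajb to 0.46 and Hspb to -0.72. Without a dim filter the medians were -0.027 for all members, 0.43 for Dnajb, -0.72 for Hspb and -0.027 for vesicles and endosomes. Hspa and Hsph had 0.006 with genes above background on both arrays. As the median over probes, Dnaja had -0.30, Dnajc 0.091, Hspa and Hsph -0.13, and vesicles and endosomes 0.705. That probe rule also turned the sign of Dnaja1 (0.37 to -0.51), Hspa4 (0.06 to -0.27) and Hspa8 (0.13 to -0.02). The sign of 11 members turned with the scaling or background correction, all with main differences under 0.1 in size: Dnaja2, Dnaja3, Dnajc5, Dnajc9, Dnajc10, Dnajc17, Dnajc19, Dnajc30, Hsp90aa1, Hspa4l and Hspd1. Median scaling and scaling on spots above background on both arrays each add a constant to every difference. The cause of the other shifts was not tested.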
